A study of Mus musculus with 3 samples.

Results

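Left ventricles of C57BL6J mice labelled as lacking both Egln1 and Hif2a under Tie2Cre were compared with ventricles of Egln1 floxed mice, gene by gene and family by family. Egln1 encodes PHD2, and Hif2a is the protein encoded by Epas1. Every gene with a mean of at least 1 FPKM (fragments scaled to the length of the transcript and to the depth of the library) over the 2 libraries entered the comparison, which gave 11888 genes of the 14843 listed for this pair and of the 15503 in the whole series. The series has 3 genotypes, Egln1 floxed, Egln1Tie2Cre and Egln1/Hif2aTie2Cre, and for each of them RNA of 3 mice was pooled into 1 library. The design text calls the control mice wild type, while the sample labels give Egln1 floxed, and the age and sex of the mice are not given. Both genotypes labelled as deleted carry Tie2Cre, and the control label names no Cre. The Tie2 promoter works in endothelium and in the blood lineage too, whereas cardiomyocytes, which supply much of the ventricle's RNA, keep both genes. With 1 pooled library per genotype no difference below has a replicate check, so each value describes these libraries and nothing was tested.

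PHD2 is the main prolyl hydroxylase that, in the presence of oxygen, marks the alpha subunits of the hypoxia-inducible factors (HIF) for recognition by the von Hippel-Lindau protein and for degradation. When it is missing, HIF alpha subunits persist, pair with the ARNT protein and bind the hypoxia response element of their target genes, which act in glucose use, oxygen supply, blood vessel growth and matrix assembly. HIF2 alpha is especially prominent in endothelial cells, and HIF1 alpha is found more widely.

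The library labelled Egln1/Hif2aTie2Cre had a summed FPKM of 745691 against 604781 in the floxed library, and mitochondrially encoded genes made up 28.4% and 23.5% of these sums. Differences between the 2 libraries were small for most genes. The median log2 ratio of FPKM + 1 was -0.0038, and the middle range of genes, from the lower to the upper quartile, ran from -0.19 to 0.20. The sex-linked genes were not balanced. Xist, expressed from the inactive X chromosome, stood at 16.5 FPKM in the floxed library, 30.2 in the labelled double-deletion library and 18.9 in the Egln1Tie2Cre library. The Y-linked genes Kdm5d (1.86, 0.610 and 1.31 in the same order), Uty (3.60, 1.31 and 2.33) and Ddx3y (11.4, 5.59 and 8.73) ran the other way, while Eif2s3y differed little between the first 2 libraries (19.2, 17.3 and 27.0). The part of this imbalance in the differences below was not tested.

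The targeted genes came first. Egln1 (GRCm38 chromosome 8, 124908587 to 124949324, minus strand) stood at 129.5 FPKM in the floxed library, 129.0 in the library labelled Egln1/Hif2aTie2Cre and 95.7 in the Egln1Tie2Cre library. The level thus goes against the label of a deletion, although this check is weak, since many cells of whole ventricle keep the gene and a shortened transcript may still be counted. Epas1 (chromosome 17, 86753700 to 86833410) stood at 77.4 in the floxed library, 54.5 in the labelled double-deletion library and 65.0 in the Egln1Tie2Cre library, and was 1.42-fold lower in the second than in the first. In whole tissue, fewer cells of a type and less RNA per cell cannot be told apart.

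Targeted genes, Tek (the gene of Tie2) and the HIF machinery formed a list of 14 measured genes. Of these, 11 had a ratio below 1, against 50.6% of all genes, with Egln1 counted among them at a log2 ratio of -0.0063, and the median was -0.24. Hif1an, whose product hydroxylates an asparagine of HIF alpha and so limits its activity, was 18.2 in the floxed library, 11.2 in the labelled double-deletion library and 14.1 in the Egln1Tie2Cre library. It was 1.63-fold lower and the one member at least 1.5-fold lower, a mark passed by 3.28% of all genes and missed by Hif1an (-0.51) once ratios were centred within bins of transcript length, as described further on. Hif1a (19.3, 15.01 and 20.1) and Arnt (17.6, 14.2 and 18.4) were 1.29-fold and 1.24-fold lower, and Ep300, a coactivator of HIF, was 7.30, 5.23 and 5.94. The related hydroxylase gene Egln2 was close in all 3 libraries (27.5, 25.9 and 24.97). Egln3 stood apart from the rest of the machinery. It encodes the hydroxylase PHD3 and is itself a HIF target, and it was 25.2 in the floxed library, 65.3 in the labelled double-deletion library and 19.9 in the Egln1Tie2Cre library. The labelled double-deletion library was thus the highest of the 3, 2.60-fold above the floxed one, while the other 2 lay close together.

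Among 35 measured HIF targets outside glycolysis, 26 were above the floxed value, against 49.4% of all genes, with a median log2 ratio of 0.32. At least 1.5-fold higher were 7 of them, against 4.42% of all genes, and at least 2-fold higher were 3, against 0.538% of all genes. None of the 35 was at least 1.5-fold lower. After length centring the median was 0.24, with 26 above 0 and 6 at least 1.5-fold higher. The highest was Slc16a3, which encodes the lactate exporter MCT4: 0.875 FPKM in the floxed library, 18.7 in the labelled double-deletion library and 7.43 in the Egln1Tie2Cre library. The floxed library was near the lower limit of the range analysed, and the 21.4-fold difference rests on that low value. P4ha1, a subunit of the collagen prolyl 4-hydroxylase, followed with 16.3, 36.3 and 23.2. Ndufa4l2, a HIF target of the mitochondrion that is also a pericyte marker, was 18.8, 35.9 and 27.7, and Jmjd6, a lysyl hydroxylase of splicing factors, was 14.6, 23.8 and 17.8. In these 4 genes the labelled double-deletion library was the highest of the 3 and the floxed library the lowest. Bnip3, which directs mitochondria to degradation, had 89.5, 159.6 and 83.4, so that 2 libraries were alike and the labelled double-deletion library was above them; 74.7% of its sequence also occurs in other transcripts, which makes its FPKM less certain. Fam162a, a HIF1-responsive mitochondrial gene, was 132 in the floxed library, 213 in the labelled double-deletion library and 228 in the Egln1Tie2Cre library. Below the floxed value were Vldlr, a lipoprotein receptor (66.6, 48.6 and 67.0), and Tgm2, a transglutaminase (77.6, 57.1 and 152).

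**Figure D1:**
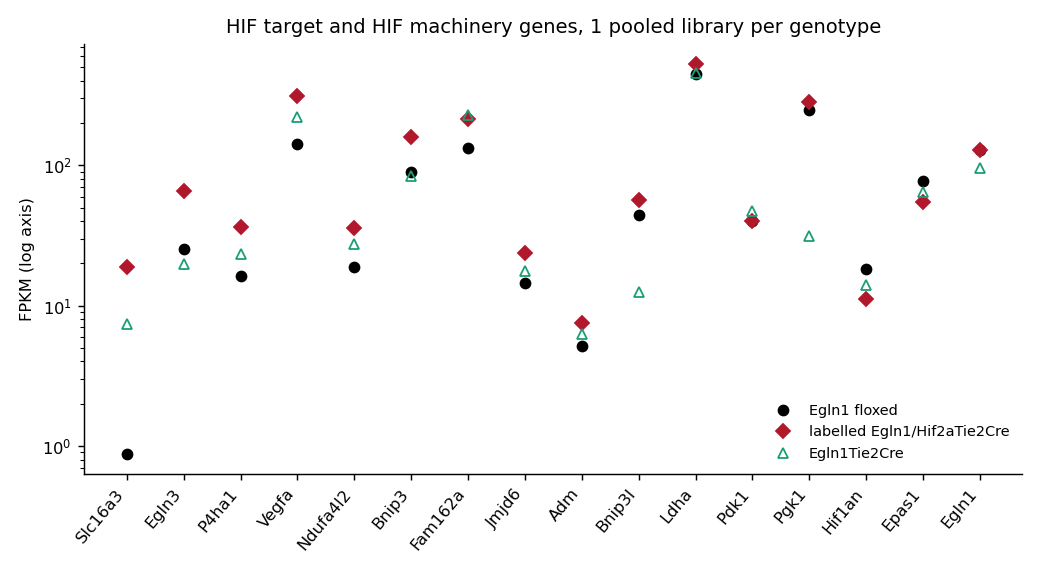
FPKM (log axis) of 16 HIF target and HIF machinery genes in the 3 libraries, 1 pooled library of 3 mice each: filled circles floxed, diamonds labelled Egln1/Hif2aTie2Cre, open triangles Egln1Tie2Cre. Slc16a3 runs from 0.875 to 18.7, whereas Egln1 lies at 129.5 and 129.0 in the floxed and the labelled double-deletion library.

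To see whether the genes with the largest differences carry the core letters of a hypoxia response element, ACGTG and GCGTG were searched on both strands in the 250 bases before the annotated start of transcription. Stretches are from RefSeq (GRCm38.p6), written 5′ to 3′ on the strand of the gene, with matches in capitals (a match on the opposite strand reads CACGT or CACGC). Slc16a3, Egln3, P4ha1 and Pygl are shown as genes well above the floxed value that have matches, Vegfa (at the first of its 2 starts in the table) and Nppb as genes also above it without a match, and Pttg1 as the named gene with the largest difference below it.
Slc16a3, chr11:120948817-120949066, plus strand: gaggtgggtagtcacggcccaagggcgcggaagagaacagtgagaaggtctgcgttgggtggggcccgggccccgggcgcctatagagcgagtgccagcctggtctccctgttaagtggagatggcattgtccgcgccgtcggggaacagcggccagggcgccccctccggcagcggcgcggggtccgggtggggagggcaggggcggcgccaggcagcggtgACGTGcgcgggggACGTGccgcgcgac
Egln3, chr12:54203875-54204124, minus strand: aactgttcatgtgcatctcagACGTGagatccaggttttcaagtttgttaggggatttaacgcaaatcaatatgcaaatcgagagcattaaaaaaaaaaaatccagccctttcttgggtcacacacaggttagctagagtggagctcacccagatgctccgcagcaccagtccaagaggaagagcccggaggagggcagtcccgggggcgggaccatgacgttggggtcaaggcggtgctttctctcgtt
P4ha1, chr10:59323046-59323295, plus strand: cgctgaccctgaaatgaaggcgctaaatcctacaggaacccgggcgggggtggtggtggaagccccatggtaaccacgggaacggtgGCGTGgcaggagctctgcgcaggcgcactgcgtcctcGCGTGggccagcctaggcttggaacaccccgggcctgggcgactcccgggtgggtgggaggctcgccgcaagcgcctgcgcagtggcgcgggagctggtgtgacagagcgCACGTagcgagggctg
Pygl, chr12:70227684-70227933, minus strand: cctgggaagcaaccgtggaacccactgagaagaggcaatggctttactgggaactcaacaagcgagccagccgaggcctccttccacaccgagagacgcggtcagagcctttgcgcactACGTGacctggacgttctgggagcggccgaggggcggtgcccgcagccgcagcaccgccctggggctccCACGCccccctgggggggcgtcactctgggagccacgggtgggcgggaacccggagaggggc
Vegfa, chr17:46032378-46032627, minus strand: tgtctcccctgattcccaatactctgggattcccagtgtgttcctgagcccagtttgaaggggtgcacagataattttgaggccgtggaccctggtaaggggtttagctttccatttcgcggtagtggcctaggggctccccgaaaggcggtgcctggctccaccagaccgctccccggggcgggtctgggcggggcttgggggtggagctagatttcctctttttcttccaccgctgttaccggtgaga
Nppb, chr4:147985650-147985899, plus strand: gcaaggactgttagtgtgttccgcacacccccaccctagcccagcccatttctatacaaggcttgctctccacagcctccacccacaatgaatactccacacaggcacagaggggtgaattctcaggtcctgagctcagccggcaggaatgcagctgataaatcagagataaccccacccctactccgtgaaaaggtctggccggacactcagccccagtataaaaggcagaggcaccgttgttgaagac
Pttg1, chr11:43425982-43426231, minus strand: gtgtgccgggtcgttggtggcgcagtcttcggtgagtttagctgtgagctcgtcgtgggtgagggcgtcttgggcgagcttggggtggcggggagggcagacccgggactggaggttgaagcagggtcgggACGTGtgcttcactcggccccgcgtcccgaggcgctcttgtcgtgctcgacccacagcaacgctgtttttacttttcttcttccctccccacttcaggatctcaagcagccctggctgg

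Slc16a3 holds ACGTG on its own strand 27 and 14 bases before the start, both within a GC-rich stretch. Egln3 has 1 ACGTG, 229 bases before the start. P4ha1 has GCGTG at 163 and 126 bases and ACGTG on the opposite strand at 16 bases, and Pygl has ACGTG at 131 and GCGTG on the opposite strand at 62 bases. Vegfa, an established HIF target, has neither motif before its first start. Before its other start GCGTG lies at 218 and ACGTG on the opposite strand at 211 bases. That window (46025164 to 46025413) lies inside the annotated gene (46016993 to 46032369), so these 2 matches are in the gene body and not upstream of the gene. Of the 24 non-glycolytic HIF targets with a promoter in the table, 18 held ACGTG, 19 held GCGTG and 23 held at least 1 of them. These letters are common: ACGTG was found in 25.3%, GCGTG in 50.7% and either in 62.1% of the 8699 kept genes with a promoter, and either in 41.5% of all 27025 genes of the table. Among the 20 named genes with the largest difference in each direction, either motif was found in 9 of the 16 higher and 11 of the 17 lower genes with a promoter. Pttg1, which was far below the floxed value, has ACGTG at 119 bases. A match describes letters in a window and says nothing of binding.

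Glucose and lactate handling was uneven. Of 8 measured glucose and lactate transporters, 3 were above and 5 below the floxed value, with a median log2 ratio of -0.28. Besides Slc16a3, Slc2a1, the basal glucose transporter GLUT1, was 8.93 in the floxed library, 13.3 in the labelled double-deletion library and 18.1 in the Egln1Tie2Cre library. Bsg, the chaperone of lactate transporters, was 933, 1196 and 887. The insulin-responsive transporter of muscle, Slc2a4, was 190, 154 and 174, and Slc16a1, which encodes the lactate carrier MCT1, was 70.3, 56.5 and 69.0. Slc2a12 was 2.02-fold lower (2.92, 1.44 and 1.56). MCT4 thus stood above and MCT1 and GLUT4 below their floxed values in the same library.

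Most glycolytic enzymes differed little. Among 29 glycolysis and pyruvate genes, 19 were above and 10 below the floxed value, and the median was 0.06. At least 1.5-fold higher were 3, against 4.42% of all genes, and none was lower by that much. Mpc2, a subunit of the mitochondrial pyruvate carrier, had the largest ratio (274, 478 and 325). Pfkp, the platelet-type phosphofructokinase, was 20.6, 34.4 and 33.5, and Pgam1 was 18.5, 29.7 and 4.17, with 42.1% of its sequence found elsewhere. In the labelled double-deletion library, established glycolytic HIF targets were nearer to the floxed level. Ldha was 449, 533 and 454, Pgk1 247, 282 and 31.6, and Pdk1, the kinase that holds back pyruvate dehydrogenase, 40.5, 39.8 and 46.9. For Pgam1 and Pgk1 the Egln1Tie2Cre library was far below both others, and no order of the 3 libraries is read from these 2 genes. Pfkfb1, a bifunctional enzyme that sets fructose 2,6-bisphosphate, was lower (9.03, 5.80 and 5.22).

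Glycogen genes lay mostly below the floxed value, 12 of 19, with a median of -0.23, or -0.16 after length centring. Pygl, the liver-type glycogen phosphorylase and a known HIF-responsive gene, was 1 of the 7 above the floxed value. It was the one member of the 19 at least 1.5-fold higher, a share near the 4.42% of all genes. Pygl stood at 1.74 FPKM in the floxed library, 6.58 in the labelled double-deletion library (3.79-fold higher) and 4.66 in the Egln1Tie2Cre library. The abundant brain-type enzyme Pygb was 286, 206 and 314, and the glycogen synthase of muscle, Gys1, was 35.9, 24.2 and 34.0. Stbd1, which tethers glycogen to membranes, was 2.41, 0.842 and 6.93 and was the one member at least 1.5-fold lower, against 3.28% of all genes. In each of Pygb, Gys1 and Stbd1 the labelled double-deletion library was the lowest of the 3.

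**Figure D2:**
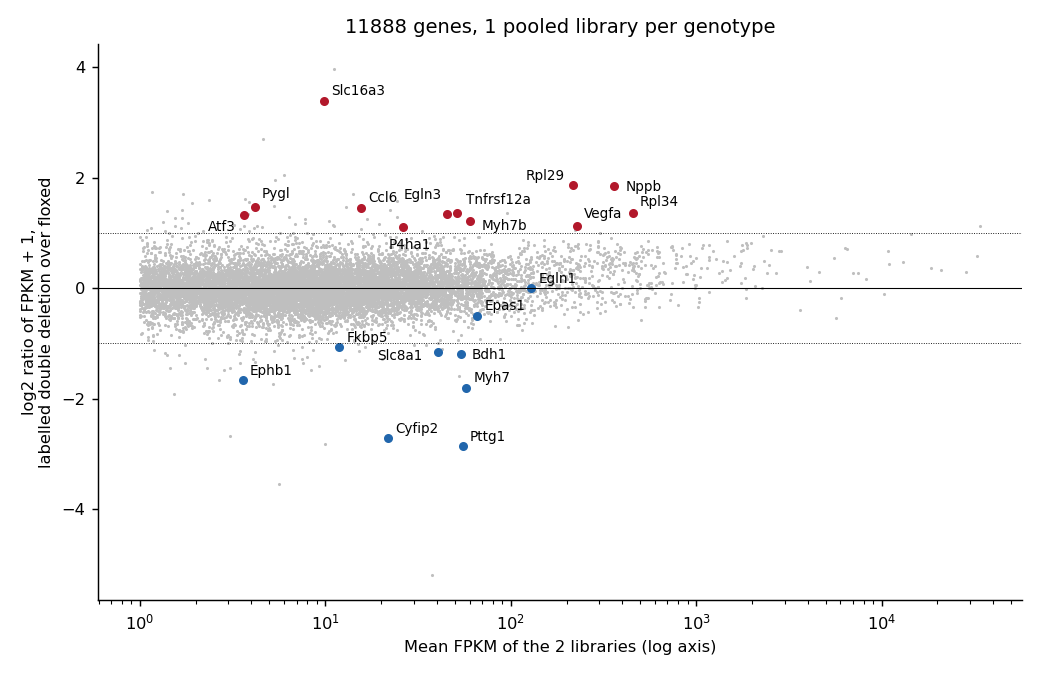
log2 ratio of FPKM + 1, the library labelled Egln1/Hif2aTie2Cre over the floxed library, against the mean FPKM of both (log axis) for 11888 genes, with 21 genes labelled and dotted lines at 2-fold. Slc16a3 (3.39) lies highest and Pttg1 (-2.86) lowest among the labelled genes, and Egln1 (-0.0063) lies on the zero line.

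Genes of the VEGF, apelin and adrenomedullin systems lay above the floxed value, mostly by small amounts, while other vessel families were divided. All 9 measured VEGF ligands and receptors did so, with a median of 0.25, or 0.31 after length centring, when 8 were above. Vegfa, the principal angiogenic ligand, was 142, 311 and 220. It lay 2.20-fold above the floxed library. Vegfc, a ligand for lymphatic growth, was 3.19, 4.99 and 2.41, and the receptors Kdr (32.9, 37.2 and 42.9) and Flt1 (28.9, 30.3 and 36.6) differed by less than 1.5-fold. Of the apelin and adrenomedullin systems all 8 genes were above the floxed value, median 0.33, or 0.27 after length centring, when 7 were above. Ramp1 (1.38, 3.24 and 1.94) and Ramp3 (4.87, 8.32 and 6.73) were at least 1.5-fold higher, against 4.42% of all genes, and 1 stayed so after length centring. Both encode partners of the adrenomedullin and CGRP receptor. The HIF target Adm was 5.12, 7.53 and 6.24, and the apelin receptor gene Aplnr was 18.1, 25.8 and 3.77. Angpt2, which loosens the endothelium through the Tie2 receptor, was low in all libraries (0.861, 2.03 and 2.05).

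Among 30 endothelial markers 23 were above the floxed value, against 49.4% of all genes, and 3 were at least 1.5-fold higher, against 4.42%. Their median of 0.16 became 0.10 after length centring, and 1 of the 3, Emcn, stayed past the mark. Emcn, a sialomucin of capillaries and veins, was 21.4, 44.8 and 21.9, the tight-junction gene Cldn5 14.4, 24.3 and 11.8, and Egfl7 107, 169 and 132. In Emcn and Cldn5 the labelled double-deletion library stood apart from 2 libraries that were close to each other. Klf2 and Klf4, transcription factors induced by blood flow in endothelium, were 20.6, 33.4 and 31.6 and 9.78, 21.5 and 18.6. Id1, a target of BMP signalling, was 38.7, 73.0 and 56.9, whereas the BMP receptor gene Bmpr2 was 1.73-fold lower (4.65, 2.69 and 5.03). Of 16 endothelial Notch genes 10 were above and 6 below, and none was 1.5-fold apart on the FPKM + 1 scale. Smooth muscle and pericyte markers were divided, 14 of 24 above and a median of 0.05. Of its pericyte members, Higd1b was 11.9, 24.4 and 13.4 and Vtn 14.4, 23.8 and 8.29. Pdgfrb was 17.9, 13.5 and 14.1, and Abcc9, the 1 member of the list at least 1.5-fold lower, 67.4, 44.2 and 52.5.

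Cardiomyocyte stress genes differed in both directions. Nppb, the gene of brain natriuretic peptide, was 157 in the floxed library, 568 in the labelled double-deletion library and 576 in the Egln1Tie2Cre library. Its partner Nppa, atrial natriuretic peptide, was 160.2, 255.9 and 1858, and 56.8% of its sequence occurs elsewhere. The receptors and processing enzymes of the system lay below or near the floxed value: Corin, which cleaves the atrial precursor, was 49.2, 34.9 and 52.4, and Furin 27.7, 20.6 and 27.9. Ankrd1, a titin-associated stress gene, was 485, 754 and 1688, and Tnfrsf12a, the receptor for TWEAK, was 28.4, 73.9 and 89.6. In the list of 22 fetal and hypertrophic genes 12 were above and 10 below the floxed value, with a median of 0.01.

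Myosin heavy chains differed in both directions. Myh7, the slow isoform re-expressed in stressed mouse ventricle, was 90.0 in the floxed library, 25.04 in the labelled double-deletion library and 330.4 in the Egln1Tie2Cre library, 3.59-fold lower in the second than the first. The adult isoform Myh6 was 6691, 4600 and 3645. Between 32.5% and 38.6% of the sequence of these neighbouring paralogs occurs in other transcripts. Myh7b, an ancient myosin heavy chain, was 36.2, 85.1 and 37.8, and 0.29% of its sequence is shared. Myl4 and Myl7, light chains of the atrium, were 20.1, 33.8 and 43.5, and 26.3, 41.4 and 74.0, and Mylk4, a myosin light chain kinase, was 68.8, 35.4 and 17.99. Of the Z-disc genes, Nexn was 219, 370 and 306. The 25 sarcomere genes had a median of 0.27, which became 0.04 once ratios were centred within bins of transcript length, as described next.

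The log2 ratio followed transcript length. In 10 equal groups of annotated genes the median went down at every step, from 0.29 in the shortest (139 to 1295 bases) to -0.16 in the longest (6723 to 123179 bases). At least 1.5-fold higher and lower were 203 and 57 genes in the shortest group and 5 and 73 in the longest. Spearman's rho between length and ratio was -0.36 across 11789 genes of the same 2 libraries and -0.36 across the 9010 genes without shared sequence; with GC content it was -0.049. In the same groups, the Egln1Tie2Cre library over the same floxed library ran from 0.05 to -0.05. List medians are therefore also given after subtracting the median of 20 length bins, an addition made after the trend was seen. Of the 64 genes at least 2-fold higher and the 52 at least 2-fold lower (0.437% of all genes), 43 and 43 stayed past that mark.

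**Figure D3:**
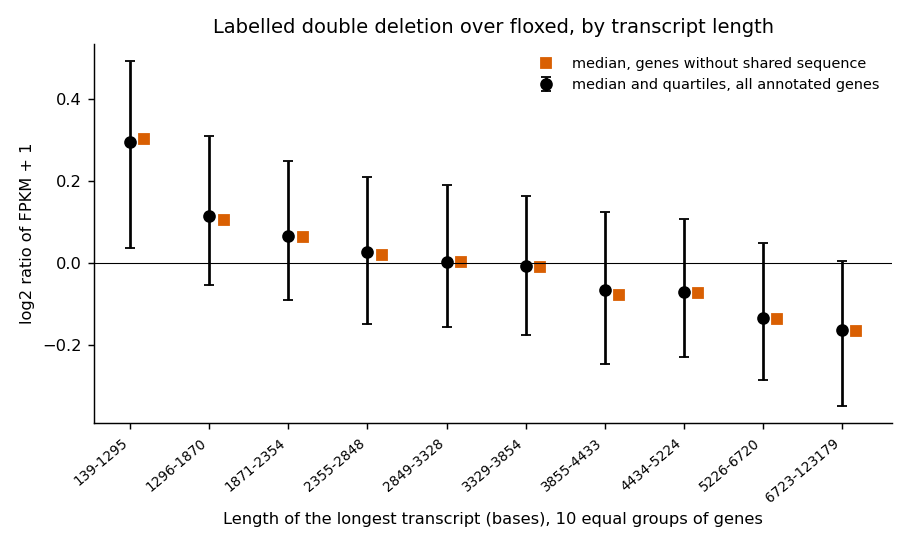
Median log2 ratio of FPKM + 1, the library labelled Egln1/Hif2aTie2Cre over the floxed library, in 10 groups of genes by the length of their longest transcript. Bars give the quartiles of 11789 genes and squares the medians without genes that share sequence, and the medians fall from 0.29 to -0.16.

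Of the families of short transcripts, ribosomal proteins and respiratory chain subunits lay almost throughout above the floxed value. Of 85 cytosolic ribosomal protein genes 84 were above it, with a median of 0.53 and 37 at least 1.5-fold higher, against 4.42% of all genes. After length centring the median was 0.31 and 10 were past that mark. Sequence shared with transcripts of other genes touches 76 of the 85, and the remaining 9 had a median of 0.55. Rpl29 was 92.8, 340.4 and 111. The Egln1Tie2Cre library stood far from both others in this family, with a summed FPKM of 9956 against 27899 in the floxed and 41088 in the labelled double-deletion library. Rpl34 is an example, at 255.1, 656 and 9.27. For ribosomal protein genes, the value of that library is given but no order of the 3 libraries is read from it.

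Of 81 nuclear genes for respiratory chain subunits, 76 were above the floxed value, with a median of 0.42. At least 1.5-fold higher were 25, against 4.42% of all genes. After length centring the median was 0.20 and 8 were past 1.5-fold. The largest ratios included small subunits: Cox7a2 was 240.4, 453 and 408, Cox7a1, the heart isoform, 4779, 7916 and 4618, and Atp5e 1339.7, 2353 and 2137. The 5 members below the floxed value included 3 of large subunits: Ndufs1 of complex I was 317, 265 and 349.5, Sdha of complex II 583, 517 and 649, and Uqcrc1 of complex III 765, 708 and 806. The 10 mitochondrially encoded genes had a median of 0.47, and mt-Nd1 was 26341, 39440 and 18420. Of 76 mitochondrial ribosomal proteins, 64 were above the floxed value, with a median of 0.22 and 0.09 after length centring.

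Catabolic enzymes of the mitochondrial matrix went the other way, with medians that were lower still after length centring. Of 25 ketone body and amino acid catabolism genes, 23 were below the floxed value, with a median of -0.26 and -0.29 after centring. Bdh1, which interconverts the ketone bodies, was 75.1 in the floxed library, 32.5 in the labelled double-deletion library and 328 in the Egln1Tie2Cre library, so these 2 libraries lay on opposite sides of the floxed value. The ketone body transferase Oxct1 was 590, 464 and 917 and Ivd, of leucine breakdown, 136, 98.9 and 160.2, in the same order of libraries as Bdh1. Bdh1 was the one member of the list past 1.5-fold. Of 26 TCA cycle genes, 18 were below, with a median of -0.14 and -0.18 after centring; Ogdh was 606, 408 and 656 and Idh1, the cytosolic isocitrate dehydrogenase, 30.7, 20.8 and 25.7.

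Fatty acid genes were divided, 20 above and 25 below, with a median of -0.07. Dgat2, which makes triglyceride, was 254, 156 and 162. Acsl1, which activates fatty acids, was 275, 185 and 230, and Cpt1a, which admits them to the mitochondrion, 14.95, 10.4 and 11.7. Transcriptional regulators of metabolism were below the floxed value in 19 of 26 cases, with a median of -0.21 and -0.12 after centring. Ppara, the nuclear receptor for fatty acids, was 13.7, 6.75 and 12.8, Srebf1, a regulator of lipid synthesis, 13.7, 7.70 and 12.7, and Esrrb 8.21, 4.88 and 8.53. In each of these 3 genes the floxed and the Egln1Tie2Cre library were close together and the labelled double-deletion library was below both. Ppargc1a was 22.7, 19.5 and 28.5.

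**Figure D4:**
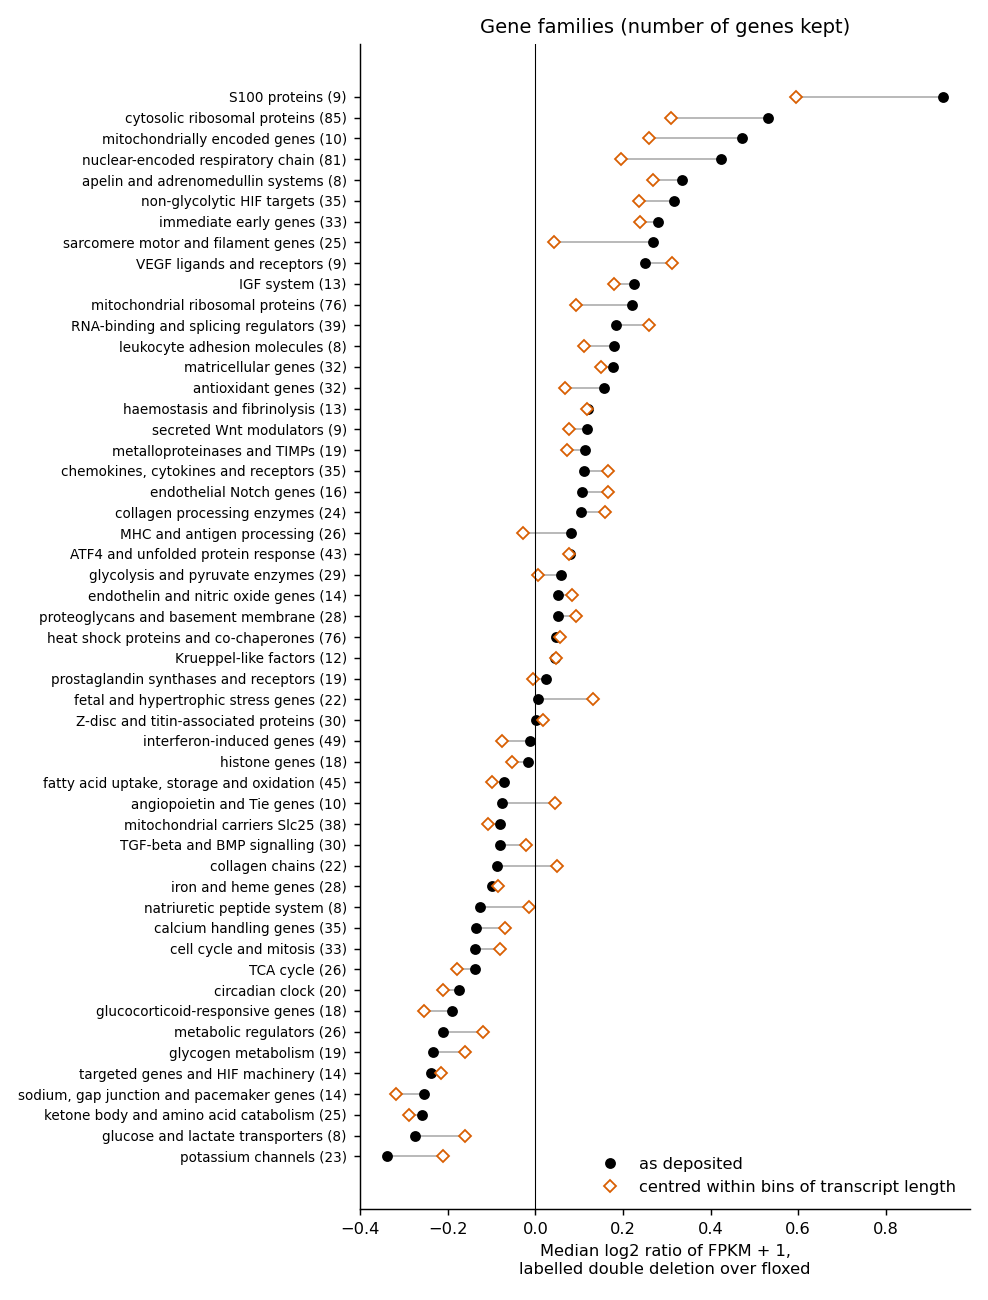
Median log2 ratio of FPKM + 1, the library labelled Egln1/Hif2aTie2Cre over the floxed library, for 52 gene families with at least 8 genes kept, as deposited (filled) and centred within bins of transcript length (open). S100 proteins lie highest, at 0.93 and 0.60, and potassium channels lowest as deposited, at -0.34 and -0.21.

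Potassium channel genes lay mostly below the floxed value, and sodium channel, gap junction and pacemaker genes were more divided. Of 23 potassium channel genes 16 were below it, against 50.6% of all genes, and 5 at least 1.5-fold lower, against 3.28%. None was 1.5-fold higher, and the median was -0.34, or -0.21 after length centring. Kcnj11 and Abcc9, pore and regulator of the ATP-sensitive channel, were 43.6, 23.9 and 29.4, and 67.4, 44.2 and 52.5. The repolarising channels Kcnh2 and Kcnq1 were 36.8, 22.4 and 36.3, and 14.2, 8.41 and 17.3. Among 14 sodium channel, gap junction and pacemaker genes 6 were above and 8 below, with a median of -0.26, or -0.32 after centring. At least 1.5-fold lower were 5, against 3.28% of all genes, of which 3 stayed so after centring. Scn4b, a beta subunit of sodium channels, was 8.52, 4.19 and 2.89. Gja1, the ventricular connexin, was 117, 121 and 91.3, while Gja5, a connexin of atrium and conduction system, was low throughout (1.76, 3.51 and 1.52).

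Of 35 calcium handling genes 3 were at least 1.5-fold lower, against 3.28% of all genes, and 1 higher, against 4.42%. After length centring 1 was lower and 2 higher, and the median went from -0.14 to -0.07. Slc8a1, the sodium-calcium exchanger, was 56.5, 24.6 and 41.2, and Ryr2, the calcium release channel, was 145 in the floxed and 85.8 in the labelled double-deletion library, a log2 ratio of -0.75 that was -0.57 after centring. Atp2a2, the calcium pump of the sarcoplasmic reticulum, was 4135, 3124 and 3270.5, and its inhibitor Pln was level (2271, 2281 and 1927). Sln, the related inhibitor of the atrium, was 7.85, 16.4 and 10.6. Sln, Myl4, Myl7, Nppa and Gja5 belong to a list of 12 atrial markers and were the 5 at least 1.5-fold higher, against 4.42% of all genes. Tbx5 (6.12, 3.59 and 5.82) was the 1 member lower by that much, against 3.28%. The list median was 0.29, or 0.27 after length centring, and 0.06 in the 10 members without shared sequence. After length centring 3 of the 12 were at least 1.5-fold higher and none lower by that much. The part of atrial tissue in these values was not tested.

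Matrix genes divided by kind as deposited, whereas the medians of the matrix lists below were all positive after length centring. Of 22 collagen chains 16 were below the floxed value and none was 1.5-fold apart, with a median of -0.09. After centring 14 were above and 8 below, with a median of 0.05. The largest ratios were in Col6a3 (9.43, 13.96 and 8.47) and Col4a4 (1.91, 1.13 and 1.30). Enzymes that process collagen were above the floxed value in 15 of 24 cases, with P4ha1 past 1.5-fold. Their median was 0.10, or 0.16 after centring. Serpinh1, the collagen chaperone, was 98.9, 143 and 59.6. Of 32 matricellular and elastic fibre genes 24 were above, 5 at least 1.5-fold, against 4.42% of all genes. Their median was 0.18, or 0.15 after centring. Meox1, a homeobox gene of activated fibroblasts, stood at 5.40, 11.7 and 9.91, Cilp 3.37, 5.92 and 11.9, Mfap4 11.9, 19.5 and 15.5, and Thbs1 1.19, 2.48 and 3.04. Fibroblast markers were above the floxed value in 17 of 22 cases but none by 1.5-fold (median 0.18). Of 28 proteoglycan and basement membrane genes 16 were above and 12 below, with a median of 0.05, or 0.09 after centring. Lama2, a laminin chain of muscle basement membrane, was 18.6, 11.4 and 12.3.

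Genes of macrophages and of inflammation lay mostly above the floxed value. S100 genes encode small calcium-binding proteins. All 9 that were kept lay above the floxed value, 6 at least 1.5-fold, against 4.42% of all genes. The S100 median was 0.93, or 0.60 after length centring. The neutrophil pair S100a8 (0.489, 3.32 and 22.7) and S100a9 (1.47, 6.30 and 31.9) had the largest ratios at low levels, and the other neutrophil marker kept, Lcn2, was 2.66, 2.07 and 4.53. More abundant members were higher too: S100a6 was 26.0, 51.1 and 50.4 and S100a13 was 29.5, 57.1 and 54.0. Of 35 chemokine and cytokine genes 25 were above, 7 at least 1.5-fold, against 4.42% of all genes, and none lower by that much. Ccl6 was 7.90, 23.4 and 10.2, Ccl9 4.23, 11.4 and 6.33, and the monocyte attractant Ccl2 1.74, 3.58 and 0.452. In these 3 chemokines the labelled double-deletion library was the highest of the 3. The 28 macrophage and monocyte markers summed to 355 FPKM in the floxed and 502 in the labelled double-deletion library, and 23 of them were above. At least 1.5-fold higher were 4, against 4.42% of all genes. Their median was 0.18, or 0.14 after length centring, when 20 were above. Tyrobp was 13.99, 28.2 and 23.1. Lyz2, with 32.8% of its sequence shared, was 91.9, 153 and 62.5. How far the chemokine genes follow the number of macrophages was not tested.

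Interferon-induced genes showed no common direction, 24 above and 25 below of 49, with a median of -0.01. The GTPase genes Igtp (13.1, 8.12 and 5.16) and Irgm2 (10.6, 6.13 and 5.03) were the 2 past 1.5-fold. Both were lower, against 3.28% of all genes, and both have shared sequence. MHC and antigen processing genes had a median of 0.08, or -0.03 after length centring. Past 1.5-fold were 2 of 26 in each direction, beside 4.42% of all genes higher and 3.28% lower. Erythroid markers summed to 561 FPKM in the floxed and 412 in the labelled double-deletion library, and 6 of 7 were below the floxed value with a median of -0.41. The 2 members without shared sequence, Car2 (1.98 and 1.96 in the first 2 libraries) and Bpgm (9.10 and 9.52), had a median of 0.03. Only 2 of 13 lymphocyte markers were measured at or above the mean of 1 FPKM.

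Stress responses of the endoplasmic reticulum were partly higher. In a list of 43 genes driven by ATF4 or the unfolded protein response, 26 were above the floxed value. Past 1.5-fold were 6 on that side and 1 on the other, against 4.42% and 3.28% of all genes. The median was 0.08. Manf, a secreted reticulum protein, was 36.9, 68.2 and 79.7, Creld2 6.36, 12.3 and 14.4, Sdf2l1 3.44, 7.45 and 5.63, and Hspa5, the chaperone BiP, 189, 259 and 232. Herpud1, of reticulum-associated degradation, was the member past 1.5-fold in the other direction (159, 102 and 158). Atf3, a stress-induced factor, was 1.66, 5.63 and 7.604. Immediate early genes were above in 24 of 33 cases, with a median of 0.28, or 0.24 after length centring. Maff was 3.48, 7.90 and 7.15, whereas Fos was 3.65, 2.09 and 2.86 and Gadd45b 7.90, 4.01 and 4.06. Of 76 heat shock genes 4 were at least 1.5-fold higher, a share near the 4.42% of all genes. Hsp90aa1 had the largest ratio, at 53.2, 138 and 26.1, with 62.9% of its sequence shared.

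Clock genes lay mostly below the floxed value. Of 20 measured members 16 were below the floxed value, with a median of -0.17 and -0.21 after centring. At least 1.5-fold lower were 3, against 3.28% of all genes, and none of them stayed so after centring. Per2, a repressor arm gene, was 7.995, 4.90 and 9.06, Cry2 14.2, 8.90 and 12.1, and the output factor Hlf 12.04, 7.11 and 6.56. Arntl, of the activator arm, was the 1 gene past 1.5-fold in the other direction, at 0.433, 1.63 and 0.799. The time of day at which the hearts were taken is not given, and its part in these values was not tested. Genes responsive to glucocorticoids, whose secretion is also timed, were below in 13 of 18 cases: Fkbp5 was 16.5, 7.32 and 35.4, and Zbtb16 27.9, 17.8 and 27.6, while Sgk1 was 33.0, 51.2 and 54.0.

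Regulators of RNA splicing, listed with long nuclear RNAs, were above the floxed value in 28 of 39 cases. At least 1.5-fold higher were 6 of them, against 4.42% of all genes. Their median was 0.18, or 0.26 after length centring. The list holds Xist, 1 of these 6. Luc7l3 was 28.9, 54.4 and 54.2, Tra2a 16.9, 28.8 and 23.7, and Hnrnph1 88.2, 141 and 104. Malat1, a nuclear noncoding RNA of 6983 bases, was 669.6, 1171 and 825, so this long transcript lay above the floxed value although the trend with length ran the other way. Of 33 cell cycle genes 22 were below and 11 above the floxed value, with 5 at least 1.5-fold lower, against 3.28% of all genes, and none higher by that much. All 5 were at low levels, and at a mean of at least 5 FPKM the median of -0.14 turned to 0.08. Top2a was 4.15, 1.78 and 0.357, Cdk1 3.83, 1.79 and 2.89, and Mki67 2.12, 0.986 and 0.358. Of 13 genes of the IGF system 9 were above the floxed value and 3 at least 1.5-fold lower, against 3.28% of all genes. These 3 were the receptors Igf1r (3.41, 1.91 and 4.37) and Igf2r (28.9, 17.2 and 29.0) and the adaptor Irs2 (2.39, 1.04 and 2.96). After length centring Irs2 alone stayed past that mark.

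**Figure D5:**
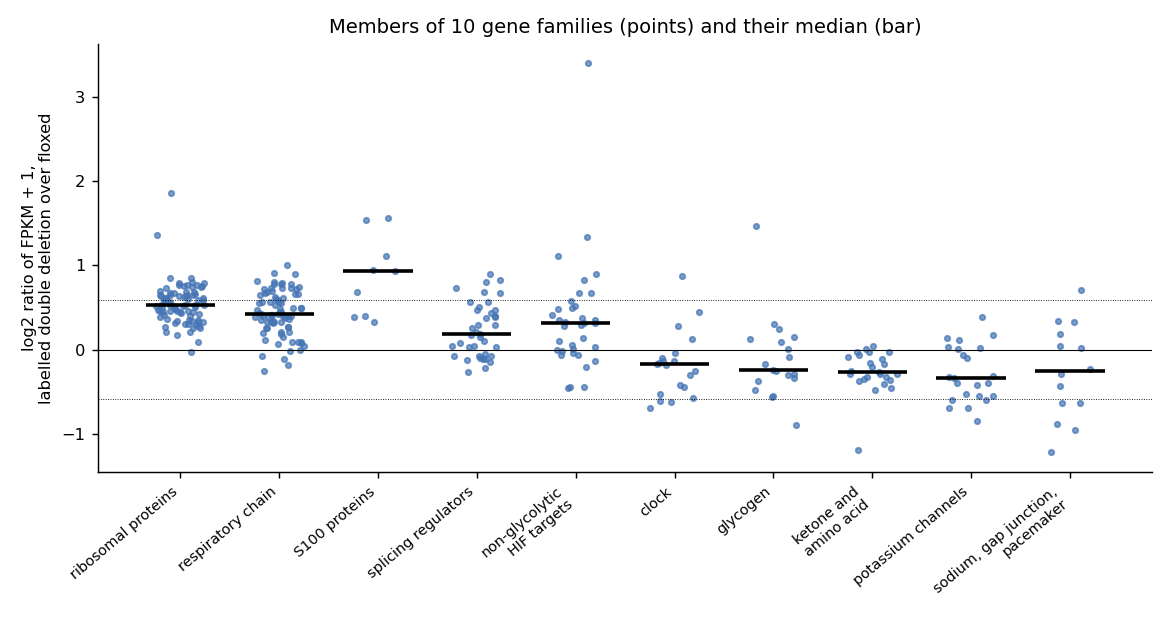
log2 ratio of FPKM + 1, the library labelled Egln1/Hif2aTie2Cre over the floxed library, for each member of 10 gene families (points) with their median (bar) and dotted lines at 1.5-fold. Ribosomal protein genes lie above 0 in 84 of 85 cases and ketone body and amino acid genes below 0 in 23 of 25.

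Outside the gene lists used here, 2 genes of chromosome 11 had the largest differences below the floxed value among the genes that could be named. Of these, Pttg1 acts in mitosis but was not on the list of cell cycle genes, nor was Wee1, described further on. Pttg1, securin, which holds sister chromatids together until anaphase, lies at 43420250 to 43426251 (GRCm38) and was 97.4 in the floxed library, 12.6 in the labelled double-deletion library and 85.2 in the Egln1Tie2Cre library. Cyfip2, a subunit of the WAVE complex that regulates actin, lies at 46193850 to 46312859 and was 38.6, 5.03 and 20.4. They were 7.76-fold and 7.68-fold lower and lie 2.77 megabases apart. Within 5 megabases of Pttg1, 1 of 22 genes was at least 1.5-fold higher and 3 lower, and around Cyfip2 5 of 52 were higher and 3 lower, beside 4.42% and 3.28% of all genes. Each of these windows holds the other of the pair. Around Epas1, 1 of 27 genes was higher and 3 lower, and around Egln1 1 of 75 was higher and 1 lower.

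Of the 64 genes at least 2-fold higher, 34 could be named; predicted or unnamed genes, a pseudogene and genes under 5 FPKM in the higher library made up the rest. Of the 52 lower, 26 could be named. Fam220a has the highest ratio of all. One entry (ENSMUSG00000048910) was 0.468, 21.9 and 13.8, while a second entry of the same name (ENSMUSG00000083012), whose sequence is shared in full with other transcripts, was 21.3, 9.14 and 3.98. Of the 20 highest named genes 8 have shared sequence and 1 is not in the annotation used, and of the 20 lowest 5 have shared sequence. Gas5, a noncoding RNA that hosts small nucleolar RNAs, was 11.8, 37.1 and 53.7 and lay just past the threshold of 10% shared. On the low side, without shared sequence, were Ephb1, an ephrin receptor (5.96, 1.20 and 0.851), Wee1, a kinase that delays mitosis and is clock-controlled (10.1, 3.58 and 8.32), and Inpp4b, a phosphoinositide phosphatase (9.54, 3.83 and 15.6). Genes just short of the 20 highest included Vegfa (log2 ratio 1.13) and P4ha1 (1.11), and Fkbp5 was the last of the 20 lowest (-1.08).

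The authors' deposited table gives a q-value for each gene, which compares these 2 pooled libraries and not the genotypes. Of 14843 genes in the authors' deposited table, 2 had a q-value at or below 0.05: Cyfip2 (7.68-fold lower, q = 0.0112) and Nppb (3.63-fold higher, q = 0.021). Next in the authors' deposited table came Rpl29 (q = 0.0633), Myh7 (0.1265), mt-Nd4l (0.1388), Pttg1 (0.2076), Rpl34 (0.2528), Slc16a3 (0.3652) and Egln3 (0.3849), and 14 genes lay below 0.9996, the value held by most of the table.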

How the data were processed

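RNA of left ventricles was sequenced on an Illumina instrument as 1 library per genotype, each from the pooled RNA of 3 mice, per the labels and the series' design text. Reads were processed by the authors with TopHat2 and Cuffdiff, per the submitters' processing notes; the sources used here give neither versions nor the genome build or annotation. The deposited tables hold, per the file headers, FPKM for both libraries of a pair, the authors' fold change as a ratio, and a q-value from the authors' own test. FPKM keeps no read numbers, so the depth is unknown and no interval could be given; the number of genes listed at 0 was 0.

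Kept were genes whose FPKM averaged 1 or more over the pair, and the log2 ratio of FPKM + 1 (pseudocount 1) was computed, which understates differences at low FPKM. Counts of genes past 1.5-fold or 2-fold use that scale, and a fold printed beside FPKM values is their plain ratio. Where 3 values stand in a row, they are FPKM in the floxed library, the library labelled Egln1/Hif2aTie2Cre and the Egln1Tie2Cre library. Both genotypes labelled as deleted are set against the same floxed library, so their values are given side by side and no overlap between the comparisons is reported. With 1 library per genotype, nothing was tested and errors were not estimated.

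Lengths, positions and shared sequence came from GENCODE M21 (GRCm38), matched by Ensembl identifier for 11789 of 11888 genes. A gene counted as sharing sequence where at least 10% of the 31-base words of its longest transcript occur in transcripts of other genes. Percentages of shared sequence refer to that longest transcript. Promoters came from RefSeq (GRCm38.p6), matched for 8699 genes. There were 70 gene lists, 53 of pathways and 17 of cell markers. Members and lists were chosen with earlier results of these data known, so no list is independent support for its direction. S100pbp, Atp5s, Atp5sl, Hspg2 and Hspb11, which share a name but not the function of their family, were taken off their lists after values were seen. Named by rule were 345 genes: all measured members of the HIF machinery list, the 20 largest log2 ratios in each direction with at least 5 FPKM in the higher library (without predicted, unnamed, sex-linked genes or pseudogenes), up to 5 members of each list with the largest ratio, and genes with a q-value up to 0.05. Other genes in the text, such as Ldha, Pdk1, Gja1, Pln and Hspa5, were chosen after their values were seen, for their known role, and a few genes the rule names are left out of the text. Alternatives were a pseudocount of 0.1, no filter, a mean of at least 5 FPKM, thresholds of 1.5-fold and 3-fold, median centring, and leaving out shared sequence or ribosomal, mitochondrial and pseudogenes; length centring and the plain FPKM ratio were added after the data were seen. The calculation was tested on simulated data. Python 3.11.15, pandas 2.3.3, numpy 2.4.6 and matplotlib 3.10.9 were used.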

Additional observations from a re-analysis of the deposited data

How the results depend on the processing

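Against 64 genes at least 2-fold higher and 52 lower, the counts were 153 and 153 with a pseudocount of 0.1, 168 and 173 with plain FPKM ratios (added after the data were seen), 34 and 31 at a mean of at least 5 FPKM, 33 and 26 without shared sequence, 525 and 390 at 1.5-fold, and 12 and 12 at 3-fold. The glucose and lactate transporters had a median of -0.28, which was -0.022 without a filter, -0.16 after length centring and 0.029 at a mean of at least 5 FPKM, a reversal; fewer genes are left in that setting. The epicardial markers, 3 genes, also reversed, from -0.32 to 0.030 without a filter. In all, 17 of 68 list medians changed sign in at least 1 setting, the others from medians within 0.2 of 0: cell cycle genes to 0.08, histones to 0.12 and metalloproteinases to -0.03 at 5 FPKM, aquaporins to 0.13 without a filter, and collagen chains to 0.05, angiopoietin genes to 0.05, adipocyte markers to -0.07 and MHC genes to -0.03 after length centring. After length centring, added after the data were seen, the median was 0.042 for sarcomere genes, -0.21 for potassium channels, 0.20 for the respiratory chain, 0.26 for mitochondrially encoded genes, 0.31 for cytosolic and 0.0926 for mitochondrial ribosomal proteins and 0.60 for S100 proteins. S100 proteins had 0.81 without a filter and 0.68 at 5 FPKM, the apelin and adrenomedullin systems 0.19 at 5 FPKM and 0.48 without shared sequence, and mitochondrially encoded genes 0.67 without shared sequence. The cause of these shifts was not tested. Centring on the median of all genes moved no list median by over 0.1. No paired analysis was possible because each genotype has 1 library, and no library could be left out for the same reason. The depth is unknown, so counting error at low FPKM cannot be given. The Egln1 level, the sex-linked genes and the length trend limit what a difference between these pools can be read as.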

Other observations

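Several smaller groups held further differences. Prostaglandin D synthase, Ptgds, was 213 FPKM in the floxed library, 381 in the library labelled Egln1/Hif2aTie2Cre and 659 in the Egln1Tie2Cre library, while 10 of 19 prostaglandin genes were above and 9 below the floxed value. In iron and heme metabolism, Trf, transferrin, was 9.50, 17.98 and 14.03, and Alas1, the first enzyme of heme synthesis outside blood, was 133, 83.9 and 135. Mt2, a metal-binding protein, was 72.8, 44.4 and 99.7. Other transcripts hold 80.7% of the sequence of Trf, 56.1% of that of Mt2 and 12% of that of Alas1. Of the secreted Wnt modulators, Sfrp2 was 1.11, 2.64 and 1.53 and Wnt11 4.68, 1.94 and 3.18. Of the metalloproteinases and their inhibitors, Timp1 was 1.53, 2.98 and 9.81 and Mmp3 0.764, 1.66 and 2.94. The antioxidant genes had no member past 1.5-fold in either direction of 32, with a median of 0.16 and 0.07 after length centring. Histone genes had 3 of 18 at least 1.5-fold lower, against 3.28% of all genes, with Hist1h1e at 2.28, 0.449 and 1.09, and most members share sequence.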
